A study of Mus musculus with 6 samples.

Results

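The miR-181 family was examined through its 4 major members on these arrays, mmu-miR-181a, mmu-miR-181b, mmu-miR-181c and mmu-miR-181d (mmu for mouse, dropped below), taken by exact reporter name from 1078 mouse miRNA reporters. All 4 were found, and all 4 passed the filter on dim values that 642 reporters passed. Vascular smooth muscle cells (VSMCs), which contract the arterial wall, were cultured from the abdominal aorta; the donors were C57BL/6 mice of 8 weeks, and the cells had been passaged several times. Control cultures received no treatment (n = 3), and the other cultures received TNF-α (n = 3), an inflammatory cytokine that activates the transcription factor NF-kB. How much TNF-α was used and for how long is not stated in the labels, and 1 of the TNF-α descriptions repeats another's replicate number, so the numbers were taken from the titles. Each culture was read on its own 1-colour Cy5 array.

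A miRNA guides a silencing complex to mRNAs that pair with its seed, bases 2 to 8 from the 5′ end, and lowers their output. The miR-181 members share a seed and hence much of their predicted target range. They are best known from lymphocyte development, where miR-181a tunes T-cell receptor signalling, and from endothelium, where miR-181b represses an importin that carries NF-kB into the nucleus. Paired hairpins encode them, and each pair is thought to be transcribed together.

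The mature sequences are shown because they define the family and show which members are nearest alike. All 4 matched RefSeq entries, printed 5′ to 3′ with the seed in capitals.
miR-181a: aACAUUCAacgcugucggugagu
miR-181b: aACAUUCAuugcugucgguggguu
miR-181c: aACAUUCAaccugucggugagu
miR-181d: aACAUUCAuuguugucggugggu
All 4 carried the seed ACAUUCA, and none of the other names among 1679 mature mouse miRNAs in the table did. Outside the seed the members fell into sequence pairs that cross the genomic ones. miR-181a and miR-181c were 1 edit apart, the base at position 11 of miR-181a being absent from miR-181c. miR-181b and miR-181d were 2 edits apart, C12U and the final base that only miR-181b has. Across these pairs the distance was 4 or 5 edits; miR-181a and miR-181b, for example, differed at A9U, C10U and A21G, and in length. Positions are counted from 1 at the 5′ end, with the base of the first-named member first.

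In the genome (GRCm38.p6, RefSeq) the pairs were a with b, on 2 chromosomes, and c with d. The miR-181a and miR-181b arms lay 159 bases apart on chromosome 1 and 1081 bases apart on chromosome 2, all on the plus strand. The arms of miR-181c and miR-181d lay 142 bases apart on the minus strand of chromosome 8, at chr8:84178924-84178945 and chr8:84178759-84178781. The chromosome 2 hairpins lay within the span of Nr6a1, a nuclear receptor gene, and of its opposite-strand lncRNA Nr6a1os, whereas no other annotated gene spanned those of chromosomes 1 and 8. The miR-181a hairpins show why its reporter cannot separate the loci: the capitals mark the mature arm, which is the same in both.
Mir181a-1, chr1:137966455-137966541, plus strand: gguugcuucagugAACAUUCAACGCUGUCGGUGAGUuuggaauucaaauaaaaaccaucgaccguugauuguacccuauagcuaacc
Mir181a-2, chr2:38852735-38852810, plus strand: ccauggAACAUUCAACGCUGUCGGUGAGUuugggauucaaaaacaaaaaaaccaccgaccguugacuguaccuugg
The same held for miR-181b, whose mature arm is encoded by Mir181b-1 on chromosome 1 and Mir181b-2 on chromosome 2. The miR-181c and miR-181d reporters each have 1 locus.

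The arrays of the TNF-α cultures had a higher background than those of the controls. The peak of the density distribution, where reporters without signal lie, was 66.3 to 75.6 for controls against 80.9 to 89.6 for TNF-α. A background limit, this peak plus 3 SD of the values below it, was 89.3 to 101 and 115 to 128, and 306 to 339 against 242 to 256 reporters exceeded it. This difference coincides with the treatment groups, and the files used here give no slide, so array background and TNF-α cannot be told apart. The smooth muscle miRNAs miR-143 and miR-145 were above the limit on every array. Of the endothelial markers miR-126-3p was dim but above the limit (117 to 157) and miR-126-5p was not. Of 5 blood cell markers, 4 were above the limit on no array and miR-150 on 2 arrays. The summed density of the blood markers was 361 to 392 for controls against 384 to 445 for TNF-α, background included. Liver and neural markers were above the limit on no array. The fit still called the liver marker miR-122 lower (-0.26, adjusted p = 0.0225 in limma). A call can thus fall on a reporter without signal, and that value is no measured change. Of 3 striated muscle markers miR-206 was above the limit on all 6 arrays, miR-133b on 2 and miR-133a on none. miR-206 fell with TNF-α (-0.49, adjusted p = 0.00339 in limma), and the summed density of the 3 was 415 to 453 for controls against 357 to 426 for TNF-α. The part of these markers in the miR-181 values was not tested. The RNA came from whole cultures, so a change in the number of expressing cells and a change in RNA per cell cannot be told apart.

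With TNF-α, miR-181a and miR-181c rose and miR-181b did not pass the test. miR-181d passed as lower, but lay below the background limit on every TNF-α array. Changes are given as TNF-α minus control on the log2 scale after background correction, an offset of 50 and quantile normalization, with the SE of the limma fit and p adjusted by Benjamini-Hochberg over the 642 reporters tested. The offset shrinks the changes of dim reporters. At an adjusted p under 0.05, 2 of the 4 members were higher and 1 was lower. The background for these counts was 12.9% of tested reporters higher and 9.81% lower, 22.7% in all. The 642 include reporters above the background limit on no array, such as miR-122, so all shares of tested reporters include reporters without signal. The filter asked for a corrected density of 32 on at least 3 arrays. Each control array had 443 to 476 reporters at that level, whereas each TNF-α array had 667 to 777. The TNF-α arrays alone could thus admit a reporter to the test. The share called was larger among brighter reporters. With the filter at the background limit on at least 3 arrays, 110 of 293 reporters were called, 52 higher and 58 lower. miR-181d passed this filter through the control arrays alone, while the other members were above the limit on every array. A filter that 1 group alone can meet can favour reporters that differ between groups. With 3 arrays a group, precision is limited throughout. On the normalized scale the groups did not overlap for 3 of the 4 members, as for 40.0% of all tested reporters.

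**Figure D1:**
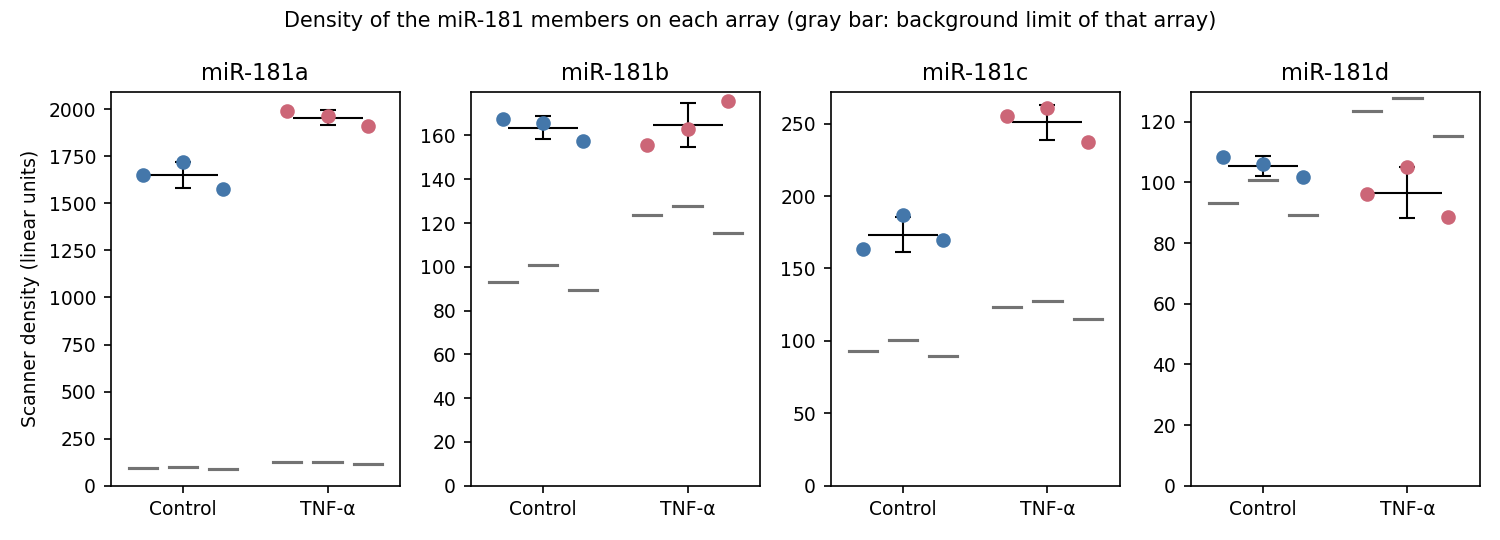
Scanner density (linear units, background included) of each member on the 3 control (blue) and 3 TNF-α (red) arrays, with group mean and SD in black and each array's background limit as a gray bar. miR-181a and miR-181c lie higher on all TNF-α arrays, miR-181b overlaps, and miR-181d lies below the limit on all 3 TNF-α arrays.

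miR-181a, encoded like miR-181b at both a/b loci, was far above background on all 6 arrays. Its scanner density was 1652, 1720 and 1579 in control replicates 1, 2 and 3, and 1992, 1963 and 1912 in TNF-α replicates 1, 2 and 3. Every TNF-α array was thus brighter than every control array, at means of 1956 ± 40.8 (SD, n = 3) against 1650.2 ± 70.4. For comparison, 37.1% of tested reporters had higher densities on all TNF-α arrays than on any control array. Densities include the background, which was higher on the TNF-α arrays, so reporters without signal can count in that share. After normalization miR-181a rose 1.31-fold (log2 0.39 ± 0.08, SE, 95% interval 0.21 to 0.57, adjusted p = 0.0115 in limma). The call was lost without normalization (0.24, adjusted p = 0.053 in limma), when arrays were scaled to the median of tested reporters (0.08, adjusted p = 0.493) and in the authors' processed table (0.20, adjusted p = 0.0927). It was also lost without control replicate 2, at 0.38 and an adjusted p of 0.0518 in limma, where the range over all alternatives was 0.00404 to 0.493.

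miR-181b, the member studied in endothelial NF-kB signalling and a partner of miR-181a at both loci, showed no difference larger than its spread. Its density was 168, 166 and 158 on the control arrays and 156, 163 and 176 on the TNF-α arrays. The groups overlapped, with means of 164 ± 5.27 for controls and 165 ± 9.99 for TNF-α (SD, n = 3). All 6 values exceeded the background limit. Less the background peak of each array, the means were 92.3 ± 2.77 for controls and 78.0 ± 14.8 for TNF-α (SD, n = 3). The groups overlapped there too, as TNF-α replicate 3 (94.6) lay within the control values. After normalization the change was -0.07 ± 0.11 (SE, adjusted p = 0.694 in limma), with a 95% interval from -0.32 to 0.18. The spread of its normalized log2 value was larger among TNF-α arrays, with an SD of 0.22 against 0.04 in controls, and TNF-α replicate 3 was the only one above all controls. Without TNF-α replicate 1 the change was 0.03, and without TNF-α replicate 3 it was -0.19. With scaling to the median of reporters above background it was 0.13, and none of these passed.

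miR-181c, from the chromosome 8 locus, had the largest rise of the 4 members. Its density was 163, 187 and 169.5 on control arrays and 255, 261 and 238 on TNF-α arrays, above the limit on all 6. The groups were well apart, with means of 173 ± 12.2 (SD, n = 3) and 251 ± 12.1. After normalization the rise was 1.45-fold (log2 0.53 ± 0.08, SE, 95% interval 0.36 to 0.71, adjusted p = 0.0038 in limma). It ranked 18 by p among the 642 reporters, and 1.87% of them had a higher change. Less the background peak of each array, its density was 91.2, 111 and 103 in controls against 166, 171 and 157 with TNF-α, a ratio of means of 1.61. The call held under all 20 alternatives, with changes of 0.36 to 0.67 and adjusted p of 0.000751 to 0.0214 in limma. Not all 20 bear on its size: other filters, the other variance model and the replicate block left the change at 0.53.

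miR-181d, the neighbour of miR-181c on chromosome 8, was the dimmest of the 4 reporters relative to the limit. Its density was 108, 106 and 102 on control arrays, all above the limit, and 96.2, 105 and 88.7 on TNF-α arrays, all below it. The scanner densities of the groups overlapped, with TNF-α replicate 2 within the control range. Less the background peak they did not overlap, at 36.3, 30.5 and 35.5 in controls against 6.63, 15.6 and 7.78 with TNF-α. The fit called it lower (adjusted p = 0.0137 in limma), with a fitted log2 value of -0.33. That value is no measured size, and no fold is given, because the control mean did not exceed the lowest value measurable above background on the TNF-α arrays. The call was lost without normalization (-0.17, adjusted p = 0.175 in limma) and when arrays were scaled to the median of reporters above background (-0.02, adjusted p = 0.871), an alternative chosen after seeing the data. The fitted value was -0.57 with an offset of 10, -0.22 with one of 100 and -0.69 in the processed table. The higher background of the TNF-α arrays moves with this result, and its part in it was not tested.

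**Figure D2:**
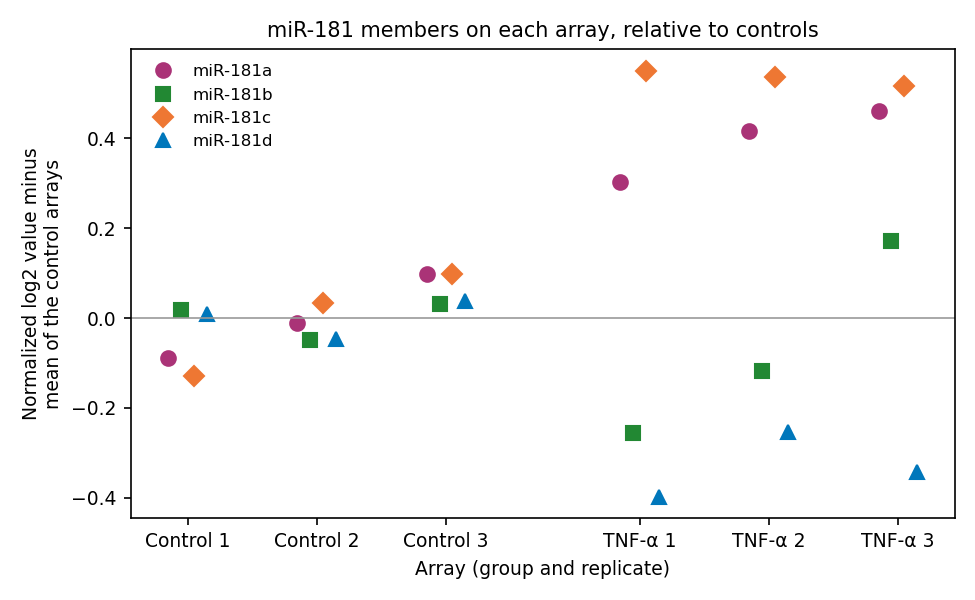
Normalized log2 value of each member on each array, minus the member's mean over the control arrays. On the TNF-α arrays miR-181a and miR-181c lie above all of their control values and miR-181d below all of its own, while miR-181b spreads on both sides of 0.

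In the fit as reported, 1 member of each genomic cluster was called higher and its neighbour was not. In the a/b pair miR-181a rose while miR-181b was at -0.07, a difference between their changes of 0.46. miR-181c rose by 0.14 more than miR-181a, its nearest in sequence, and by 0.60 more than miR-181b. Which member lay nearest to miR-181a depended on the scaling. Without normalization and under both median scalings miR-181a was 0.26 above miR-181b and 0.28 below miR-181c, and in the processed table the differences were 0.42 and 0.31. Differences from miR-181d rest on its fitted value below background and on the offset. That of miR-181c was 0.86, but 1.23 with an offset of 10 and 0.65 with one of 100, and that of miR-181b was 0.26, or 0.47 in the processed table. The per-array difference between 2 members was compared between groups by a two-sided exact permutation test for all 6 pairs. Each pair gave an exact p of 0.1 and an adjusted p of 0.1, the smallest that 3 against 3 arrays can give, so no pair can pass at this size.

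Averages over pairs were computed as descriptions without a test, and both rest in part on the fitted value of miR-181d. The mean change of a and b less that of c and d was 0.06, and ran from -0.06 to 0.11 over 18 alternatives. The mean change of a and c less that of b and d was 0.66, and ran from 0.48 to 0.86. The 18 alternatives are not separate checks of these 2 averages. Other filters left both unchanged, and the unnormalized setting and both median scalings gave the same values. Probes for miRNAs 1 or 2 edits apart can capture each other's target. The files used here hold no probe sequences, and how much signal near-identical members share was not tested.

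**Figure D3:**
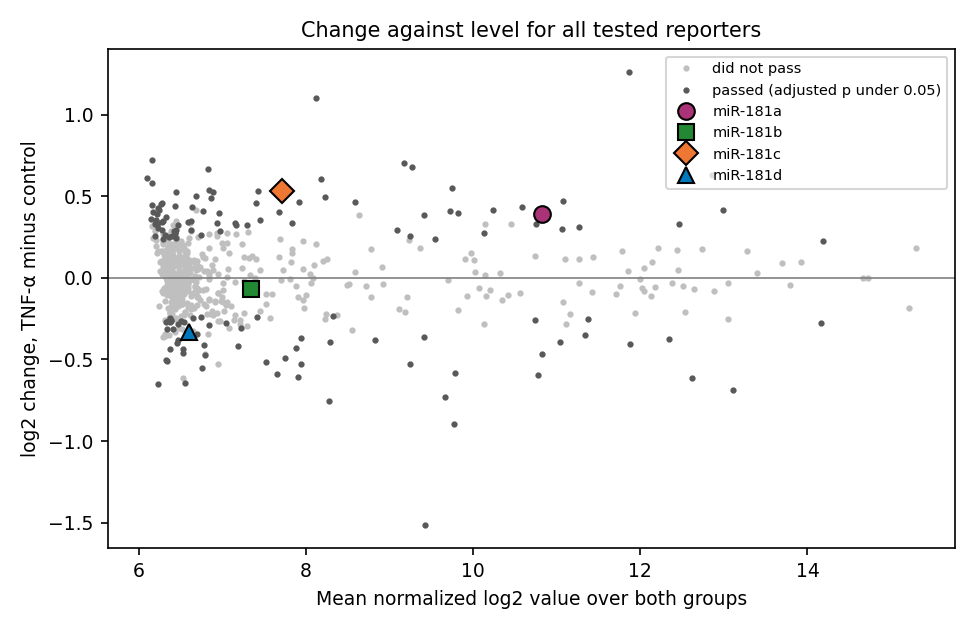
Change (TNF-α minus control, log2) against mean normalized log2 value for the 642 tested reporters, with those past an adjusted p of 0.05 in dark gray and the 4 members as large symbols. miR-181a lies in the bright part of the plot with a change of 0.39, and the other 3 members lie in the dim part at 0.53, -0.07 and -0.33.

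The other arms of the miR-181 hairpins, the strands usually discarded during processing, were read by 6 further reporters. None exceeded the background limit on any array, with densities of 60.8 to 90.0. Only miR-181c* entered the test, and it did not pass (-0.06 ± 0.07, SE, adjusted p = 0.548 in limma). It was below the limit on all 6 arrays, so no level can be read from it. The arms that differ between loci, miR-181a-1* against miR-181a-2* and miR-181b-1* against miR-181b-2*, were therefore too dim to assign the mature signal to chromosome 1 or 2.

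The reporters closest in pattern to each member were sought among the 208 others above the limit on all 6 arrays, by the root mean square difference of centred log2 values over the 6 arrays. For miR-181a the nearest was miR-15b, of the cell cycle-restraining miR-15 and miR-16 family, with a difference of 0.041 against a median of 0.231 over all candidates. miR-199b* (0.043) and miR-199a-5p (0.051), arms of the mesenchymal miR-199 hairpins, followed. For miR-181c the nearest was also miR-199b* (0.067), then miR-324-5p (0.081) and miR-24-2* (0.086). For miR-181b they were miR-151-3p (0.074), miR-22 (0.081) and miR-1968 (0.088). miR-181d was not matched, being below the limit with TNF-α. These distances are descriptions over arrays that share the same 2 groups.

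Of 14 other miRNAs linked to NF-kB signalling or its adhesion molecule targets, 12 were tested, and 1 passed as higher and 1 as lower over all reporters tested in limma, beside 12.9% and 9.81% of all tested reporters. The number called was 0 without normalization, 5 under scaling to the median of tested reporters and 3 in the processed table. The members called differed between settings, and neither of those called as reported was among the 3. The median change of the 12 was -0.08, against 0.01 over all tested reporters. The member that rose was miR-199a-5p, reported to repress the kinase that releases NF-kB from its inhibitor (0.42 ± 0.08, SE, adjusted p = 0.0102 in limma). Its density was 1152 ± 62.2 for controls and 1394 ± 152 for TNF-α (SD, n = 3). Its call was lost unnormalized (0.27), under scaling to the median of tested reporters (0.11) and in the processed table (0.24), as was that of miR-181a in these settings. The member that passed as lower was miR-155, an inducible regulator of immune cells (adjusted p = 0.0279 in limma). It was above the limit on no array, so its fitted value of -0.27 is no measured change. It was not tested in the processed table, with the background peak subtracted or under the 3 stricter filters. Its call was lost unnormalized (-0.09), under scaling to the median of reporters above background, where the sign turned (0.06), without control replicates 1 (-0.27) or 2 (-0.24) and without TNF-α replicates 1 (-0.25) or 3 (-0.26).

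The remaining list members did not pass in the fit as reported. Under scaling to the median of tested reporters miR-132 (-0.46), miR-146b (-0.45), miR-16 (-0.38) and miR-15a (-0.33) passed as lower. In the processed table miR-132 (-0.37), miR-146b (-0.46) and miR-16 (-0.28) did. miR-146b also passed with the filter at 100 (-0.22), and miR-21 without control replicate 1 (-0.29). The values that follow are from the fit as reported. miR-146a, which represses adaptors of the Toll-like and interleukin receptors upstream of NF-kB, was at 0.13 (95% interval -0.06 to 0.33), and its relative miR-146b at -0.22. miR-31, which targets the adhesion molecule E-selectin, was at 0.06, miR-17 at -0.02 and the endothelial miR-126-3p at -0.17. miR-10a, known to restrain NF-kB in endothelium, was at 0.05. miR-132 was at -0.11, miR-15a at -0.05, miR-16 at -0.11 and miR-21 at -0.18. miR-9 and miR-223 were not tested and were above the limit on no array. Several of these values changed sign with the scaling of the arrays, among them miR-146a at -0.17 with scaling to the median of tested reporters.

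**Figure D4:**
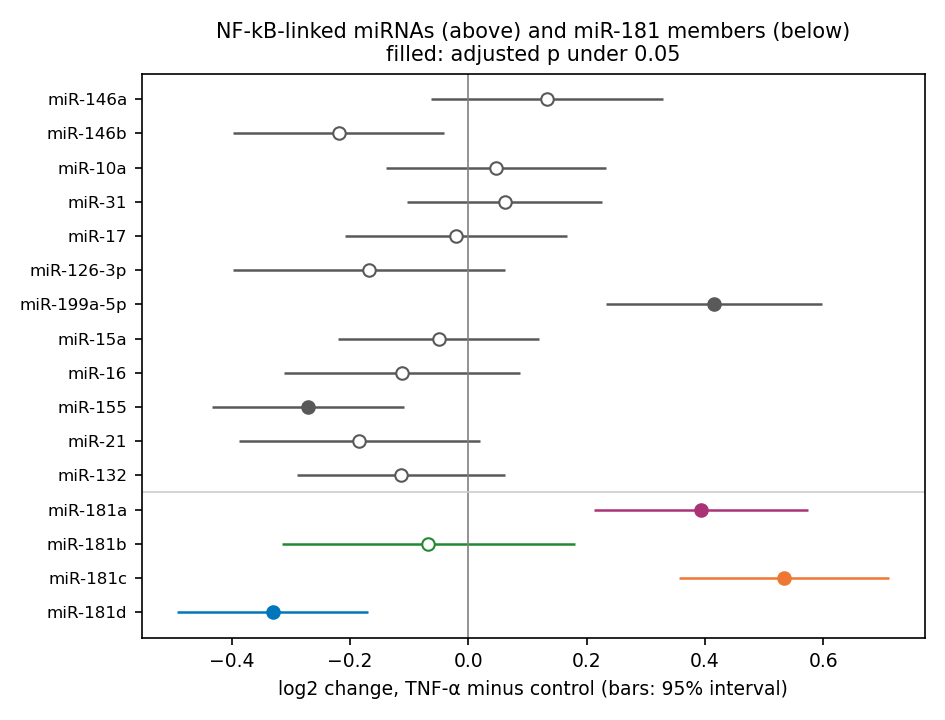
Change (TNF-α minus control, log2) with its 95% interval from limma for the 12 tested NF-kB-linked miRNAs and the 4 miR-181 members; filled points have an adjusted p under 0.05. miR-181c (0.53), miR-199a-5p (0.42) and miR-181a (0.39) lie above 0, and miR-155 (-0.27) and miR-181d (-0.33) below it.

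The balance of rises and falls over all reporters moved with the scaling of the arrays. With quantile normalization 83 reporters were higher and 63 lower. The split was 163 and 41 without normalization, 57 and 97 under scaling to the median of tested reporters, 294 and 25 with scaling to the median of reporters above background, and 39 and 81 in the processed table. The median change of all tested reporters was 0.14, -0.02, 0.29 and -0.12 in those settings, against 0.01 with quantile normalization. Relative to that median, miR-181c stood 0.38 to 0.63 higher in all 5 settings. These are not 5 separate checks. The unnormalized setting and both median scalings gave each member the same relative value (0.38 for miR-181c). With quantile normalization miR-181c stood at 0.53 and in the processed table, against the median of its 285 reporters, at 0.63. miR-181a stood 0.10 to 0.39 higher and the fitted value of miR-181d 0.31 to 0.57 lower. miR-181b, which passed in none of the settings, stood at -0.16 to -0.08.

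**Figure D5:**
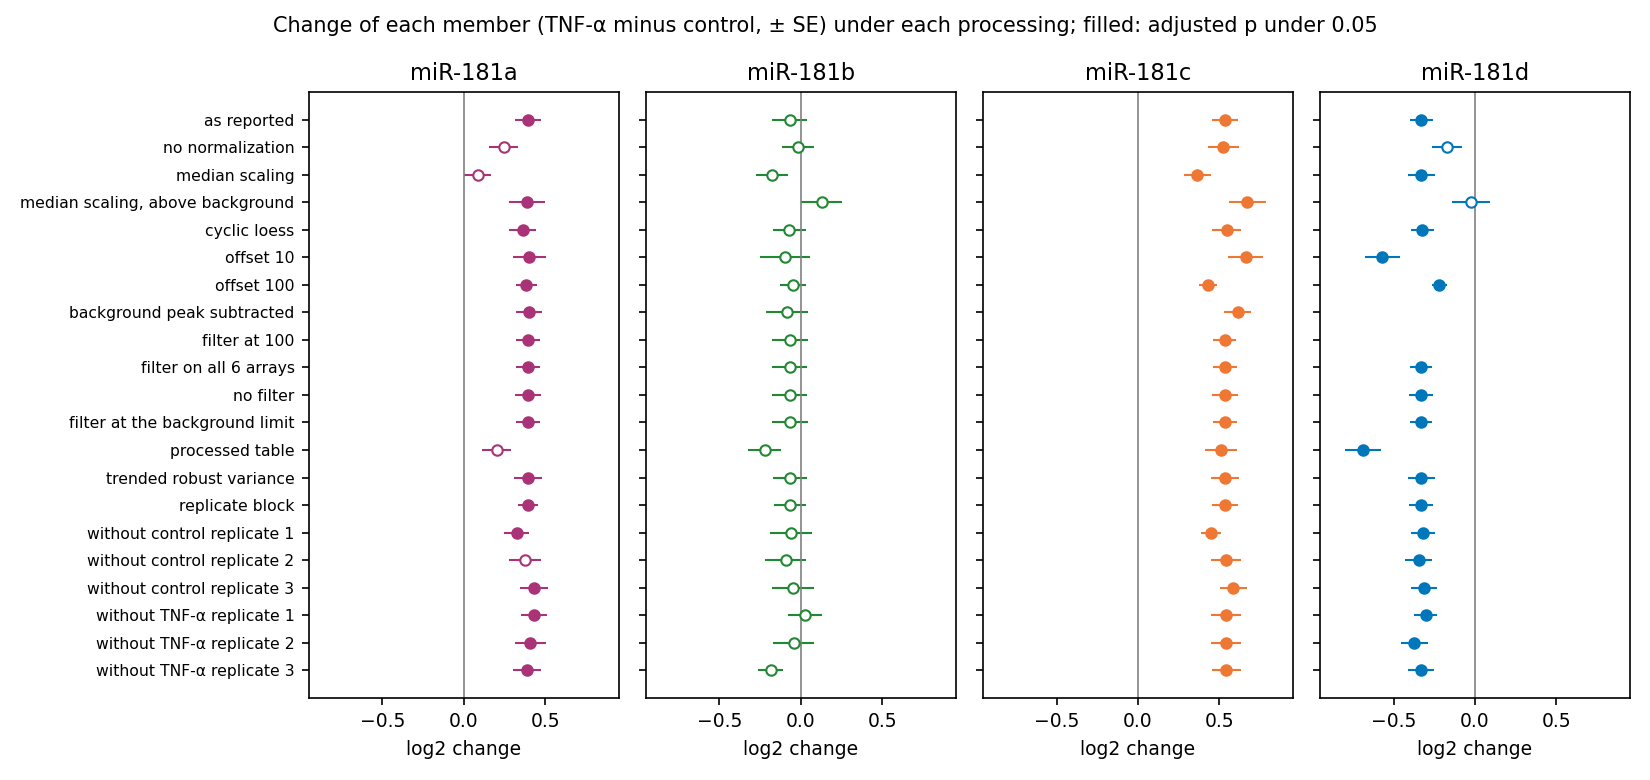
Change of each member (TNF-α minus control, log2, ± SE) as reported and under 20 alternatives, or 18 for miR-181d; filled points have an adjusted p under 0.05 in limma. miR-181c is filled in every setting, miR-181a is open in 4, miR-181d is open in 2, and miR-181b is open in all.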

How the data were processed

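miRNAs were read on 6 arrays, 3 control and 3 TNF-α, grouped by the treatment in the labels. For each array the authors deposited a median density and its standard deviation per reporter, which per the file headers and values are intensities on a linear scale with no background subtracted. They also deposited a processed intensity table, floored at 0.01, whose scaling between arrays stays unknown; its medians were 8.39 to 12.0. Scanner, software and miRBase release are unstated in the labels and headers.

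Densities were corrected with normexp, offset by 50, taken to log2 and quantile normalized in limma 3.58.1 (R 4.3.3). Reporters with a corrected density of 32 on at least 3 arrays were tested with group as the only term, two-sided, with Benjamini-Hochberg adjustment at 0.05. The procedure was also run on simulated data, but no outcome is given here and no result rests on it. Per the labels cultures were grown independently. Replicate numbers of the titles were not treated as pairs.

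The members and lists were chosen with earlier results of these data known. Named miRNAs are the 4 members, other miR-181 arms, reporters sharing the seed, the list of 14 NF-kB-linked miRNAs, and the 3 nearest in pattern to each member above background on all 6 arrays. Alternatives were other scalings, offsets, filters and variance models, peak subtraction, the processed table plus 32, a block for replicate number and leaving out each array. Arrays could not be blocked by slide.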

Additional observations from a re-analysis of the deposited data

How the results depend on the processing

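As reported, 146 of 642 tested reporters changed. Unnormalized, 204 of 642 did. With scaling to the median of reporters above background, an alternative added after seeing the data, 319 of 642 did. The filter at 100 left 189 reporters, of which 77 changed. With single arrays left out, 70 to 91 changed among 500 to 626 tested. Of the miR-181 members, miR-181c kept its call under all 20 alternatives. miR-181a kept its direction in all 20 and lost its call in 4: 0.24 without normalization, 0.084 with scaling to the median of tested reporters, 0.20 in the processed table, and 0.38 with control replicate 2 left out (0.32 to 0.43 over all arrays left out). miR-181d kept its direction in the 18 that tested it and lost its call in 2, at -0.17 without normalization and -0.024 under scaling to the median of reporters above background; it was not tested with the filter at 100 or with the background peak subtracted. miR-181b passed in none, and its sign turned with scaling to the median of reporters above background (0.13) and without TNF-α replicate 1 (0.027), within -0.19 to 0.027 over arrays left out. Without normalization 1 member was called in place of 3. The cause of these losses was not tested. Other filters, the other variance model and the replicate block leave each member's fitted change as it is, so they bear on the call and not on the direction.

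The difference between sequence pairs was 0.48 unnormalized and with either median scaling, 0.86 and 0.54 with offsets of 10 and 100, 0.77 with the background peak subtracted and 0.81 in the processed table, against 0.66. The difference between genomic clusters was -0.064 unnormalized and with either median scaling, against 0.061.

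Of the NF-kB list, 2 members were called as reported. The count was 0 without normalization and 5 when arrays were scaled to the median of tested reporters. It was 1 with scaling to the median of reporters above background, with the background peak subtracted, with the filter on all 6 arrays and with the filter at the background limit, and 1 to 2 with single arrays left out. Signs turned without normalization for miR-146a (-0.0094), miR-17 (0.035), miR-21 (0.076) and miR-31 (-0.079), and under scaling to the median of tested reporters for miR-10a (-0.056), miR-146a (-0.17) and miR-31 (-0.24). They turned in the processed table for miR-10a (-0.037), miR-146a (-0.068), miR-21 (0.12) and miR-31 (-0.12), with cyclic loess for miR-31 (-0.028), and with scaling to the median of reporters above background for miR-126-3p (0.094), miR-155 (0.056), miR-17 (0.18) and miR-21 (0.22). miR-15a turned without TNF-α replicate 1 (0.0045; -0.078 to 0.0045 over arrays left out), and miR-17 without that array (0.0059) and without control replicates 2 (0.014) or 3 (0.0083), within -0.090 to 0.014. Over these alternatives 20 of the list's values turned sign, 8 lost and 9 gained a call with the sign kept, and 197 kept sign and call.

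With the replicate block 103 reporters changed, and miR-181a (0.39), miR-181c (0.53) and miR-181d (-0.33) kept their calls, at adjusted p of 0.0229, 0.0214 and 0.0422 in limma. Same-numbered arrays deviated together with correlations of 0.04, 0.02 and 0.15, and control replicates 1 and 2 each correlated best with another number, so the numbers were not taken as pairs. Signal over background limits miR-181d, which was below the limit on all 3 TNF-α arrays. A block for slide was not run.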

Other observations

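The deposited standard deviation beside each density, whose basis the files do not state, was 3.14% to 5.60% of the density for miR-181a and 6.68% to 11.5% for miR-181c. It was 12.9% to 16.4% for miR-181b and 12.5% to 20.2% for miR-181d, against a median of 13.0% over all reporters and arrays.

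In the authors' processed table miR-181c read 94.3, 115 and 106 on control arrays and 172, 164 and 154 on TNF-α arrays. miR-181d read 39.3, 35.4 and 36.9 against 12.6, 16.0 and 5.03. miR-181b read 96.2 ± 1.90 against 78.3 ± 11.8 (SD, n = 3), groups that did not overlap there although they did in the scanner densities. Its change in that table was -0.22 (adjusted p = 0.101 in limma).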
